A study of Rattus norvegicus with 15 samples.

Results

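Endothelin-1 and the prostaglandins are short-range signals that many mesenchymal cells make and sense. The genes described here encode the precursor of endothelin-1 (Edn1), the protease that releases the active peptide (Ece1) and its type A receptor (Ednra), together with the prostaglandin-making enzymes Ptgs1, Ptgs2, Ptges, Ptges3 and Ptgis and the prostaglandin E2 receptors Ptger3 and Ptger4. They were chosen by symbol from the table of gene expression, with earlier results of these data known. Of the 10 genes asked for, 9 have a row among the 12169 protein-coding genes listed, and Ptges, the inducible prostaglandin E synthase, has none and is not analysed here. All 9 are described, and 8 passed the filter for testing of at least 1 FPKM (a level scaled for transcript length and library size) in at least 3 libraries. Ptgis stayed below that level in every library.

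Mesenchymal stem cells, taken from the marrow of the femur of Sprague Dawley rats and used at passages 3 to 5, were sequenced in 5 groups of 3 libraries. The shRac1+OGD and shLuci+OGD cells had received a lentivirus with a hairpin against Rac1 or against luciferase, the control, and then 12 h of oxygen and glucose deprivation (OGD) in sugar-free medium at 1% O2, followed by 24 h labelled R. The shRac1 and shLuci cells had the same viruses and no deprivation, and the BMSC cells had neither virus nor deprivation. The last 3 groups grew in high glucose medium with 10% serum. Nothing in the labels says that replicates came from separate animals or cultures, so p-values measure only the spread between these samples. In bulk RNA of this kind, fewer cells of a type and less RNA per cell cannot be told apart.

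As background, endothelin-1 is cut from a large precursor by the membrane protease endothelin-converting enzyme 1 and acts through the type A receptor to contract smooth muscle and drive fibroblast growth. Prostaglandins begin with arachidonic acid, which phospholipases free from membranes. The cyclooxygenases then oxidise it: Ptgs1 (COX-1) is the steady form in most tissues and Ptgs2 (COX-2) the form that growth factors, cytokines and stress induce. Terminal synthases make prostaglandin E2 (Ptges, Ptges3) or prostacyclin (Ptgis). Of the E2 receptors, Ptger3 (EP3) mostly couples to the inhibitory G protein and lowers cyclic AMP, and Ptger4 (EP4) raises it. Mesenchymal stem cells are known for prostaglandin E2 release, through which they restrain immune cells.

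The promoters of 4 genes are shown because Edn1 and Ptgs2 are the inducible members and Ptgs1 and Ptger3 the members with opposite patterns over the groups. They run from 250 bases before to 50 bases after the start of the gene, 5′ to 3′, from RefSeq on build GRCr8. Of the 10 genes 9 were matched by symbol, all but Ptgis. Capitals mark matches, on either strand, to any of 9 motifs. The motif of AP-1 was searched as TGANTCA. A variant of it, also bound by AP-1 factors, was searched as TGACTAA. The cAMP response element was searched as TGACGTCA. The palindromic E-box was searched as CACGTG. The shorter core of the hypoxia response element, which lies inside that E-box, was searched as ACGTG. The motif of the GATA factors was searched as AGATAA. The motif of C/EBP factors was searched as TTNNGNAAT. The TATA box was searched as TATAAA. The motif of NF-kB was searched as 3 G and an A, any 4 bases, and 2 C.
Edn1 promoter, chr17:22666638-22666937, minus strand: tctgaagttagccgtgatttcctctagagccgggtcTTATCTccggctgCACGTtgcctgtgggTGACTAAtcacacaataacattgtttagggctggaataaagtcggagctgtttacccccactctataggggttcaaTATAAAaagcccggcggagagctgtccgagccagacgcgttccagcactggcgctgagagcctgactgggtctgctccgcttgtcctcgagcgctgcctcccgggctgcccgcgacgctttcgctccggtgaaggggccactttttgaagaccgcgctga
Ptgs2 promoter, chr13:64713813-64714112, plus strand: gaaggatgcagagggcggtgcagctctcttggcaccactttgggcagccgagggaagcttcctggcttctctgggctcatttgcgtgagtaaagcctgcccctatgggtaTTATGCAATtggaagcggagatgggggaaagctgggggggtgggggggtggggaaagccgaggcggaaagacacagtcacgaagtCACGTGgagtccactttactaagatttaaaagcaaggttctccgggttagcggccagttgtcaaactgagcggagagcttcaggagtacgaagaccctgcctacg
Ptgs1 promoter, chr3:39981169-39981468, plus strand: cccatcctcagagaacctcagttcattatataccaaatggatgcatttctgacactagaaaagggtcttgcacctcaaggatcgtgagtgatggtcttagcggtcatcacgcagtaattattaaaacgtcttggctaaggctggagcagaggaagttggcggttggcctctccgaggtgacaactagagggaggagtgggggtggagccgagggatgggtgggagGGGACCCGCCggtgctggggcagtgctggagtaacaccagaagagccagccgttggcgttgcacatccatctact
Ptger3 promoter, chr2:249264832-249265131, plus strand: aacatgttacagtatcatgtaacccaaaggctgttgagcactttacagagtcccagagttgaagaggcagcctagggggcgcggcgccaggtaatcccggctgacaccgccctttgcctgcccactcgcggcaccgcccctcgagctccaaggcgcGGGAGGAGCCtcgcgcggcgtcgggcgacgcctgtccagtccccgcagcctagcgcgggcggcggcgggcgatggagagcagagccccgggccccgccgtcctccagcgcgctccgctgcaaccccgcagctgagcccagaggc
Edn1 holds the AP-1 variant, which 2.34% of 33469 rat promoters of this length hold, with its first base at -186 from the start. It also holds a GATA match (11.6% of promoters), a hypoxia response core (19.3%) and a match to the TATA box (14.2%), with its first base at -110. In Ptgs2 there is an E-box (6.42%) with the hypoxia core inside it, with its first base at -55, and a C/EBP match (12.3%). Ptgs1 and Ptger3 hold only an NF-kB match (19.3%) of the 9 motifs. AP-1 in its first form is in 7.33% of promoters and the cAMP response element in 1.83%, and neither is in these 4 windows. A match is a description of letters and not a bound site.

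Several facts of the series bear on every value below. Rac1, the target of the hairpin, was not called lower in the libraries labelled shRac1: it averaged 155 ± 2.57 FPKM in shRac1+OGD, 156 ± 14.6 in shLuci+OGD, 147 ± 4.96 in shRac1, 156 ± 9.90 in shLuci and 151 ± 3.27 in BMSC (mean ± SD, n = 3 each). It stood at 0.998-fold in shRac1+OGD against shLuci+OGD (limma adjusted p = 1.00) and at 0.942-fold in shRac1 against shLuci (limma adjusted p = 0.577). Rac1 thus gives no check of the sample titles, which may not all be right, and all directions rest on them. Across 11515 tested genes, the shLuci+OGD libraries correlated with those labelled shRac1 at a mean r of 0.978 and with those labelled shLuci at 0.958. The shRac1+OGD libraries correlated with shRac1 at 0.979 and with shLuci at 0.977. The authors' lists of changed genes pair shLuci+OGD with shRac1 and shRac1+OGD with BMSC. BMSC replicate 2 stands apart: its FPKM sum to 628685, against 463945 to 516495 in the other 14 libraries, and its mean correlation with its own group is 0.915, against at least 0.949 elsewhere. Counts of called members and list genes are given with and without it. Of the 7 mesenchymal markers, Thy1, Cd44, Itgb1 and Pdgfrb are listed, at group means of at least 517, 49.5, 421 and 22.4 FPKM, and Nt5e, Eng and Lepr have no row. The depth behind FPKM is unknown.

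Each pair of groups was compared by limma on log2(FPKM + 0.5), a scale that understates changes of genes with low values, with p-values adjusted by Benjamini and Hochberg over all 11515 genes and a call at an adjusted p below 0.05. In shRac1+OGD against shLuci+OGD, 4 of the 8 tested members were called, 2 higher (Edn1, Ptger3) and 2 lower (Ptgs1, Ednra), where 7.43% of all genes were called, 3.85% higher and 3.59% lower. In shRac1+OGD against shRac1, 2 were called, Ptger3 higher and Ptgs1 lower, beside 11.9% of all genes (7.76% higher, 4.19% lower). In shLuci+OGD against shLuci, 7 were called, beside 22.3% of all genes (13.1% higher, 9.18% lower): Ptgs1, Ednra, Ece1 and Ptges3 higher, and Edn1, Ptger3 and Ptger4 lower. Between shRac1 and shLuci 3 were called (16.7% of all genes; 6.92% higher, 9.82% lower), Ptgs1 and Ptgs2 higher and Ptger3 lower. Against BMSC, 4 were called in shRac1 (10.7% of all genes; 6.39% higher, 4.31% lower), Ptgs1 and Ednra higher and Edn1 and Ptger3 lower. In shLuci against BMSC 4 were called (14.3% of all genes; 9.99% higher, 4.29% lower), Ednra and Ptger4 higher and Edn1 and Ptgs2 lower. The median of the 8 members lay at -0.16, -0.13, 0.41, 0.27, 0.25 and 0.01 on the log2 scale in these 6 comparisons in the same order, and that of all genes at -0.05, 0.04, 0.08, -0.01, 0.09 and 0.11. The other pairs of groups serve the order of levels. In shLuci+OGD against shRac1, 3 members were called, 2 higher and 1 lower (15.7% of all genes; 10.7% higher, 5.01% lower). Against shLuci, 5 were called in shRac1+OGD, 3 higher and 2 lower (10.8%; 5.87% higher, 4.89% lower). Against BMSC, 3 were called in shRac1+OGD, 2 higher and 1 lower (13.5%; 9.94% higher, 3.53% lower), and 6 in shLuci+OGD, 3 each way (31.0%; 22.8% higher, 8.20% lower). Comparisons share groups, so their counts are not independent. Members and lists were chosen with earlier results of these data known, so their counts beside the shares of all genes are descriptions. Ednra passed the filter only through libraries of shLuci+OGD and shRac1, and the 3 shLuci libraries alone were enough for Ptger4. Calls that set these groups against others for these genes were favoured by the filter and are descriptions within the counts. The same holds for Ednra in the interaction, tested below.

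BMSC replicate 2 widens the spread that all groups share in the fit. Without it, the members called numbered 6 for shRac1+OGD against shLuci+OGD (21.5% of all genes), 5 for shRac1+OGD against shRac1 (30.1%), 8 for shLuci+OGD against shLuci (45.7%), 8 for shRac1 against shLuci (37.3%), 5 for shRac1 against BMSC (21.1%) and 5 for shLuci against BMSC (32.0%). The pairs used only for the order of levels had 4 members called in shLuci+OGD against shRac1 (37.4%) and 7 in shRac1+OGD against shLuci (29.2%). Against BMSC, 6 were called without it in shRac1+OGD (26.3%) and 6 in shLuci+OGD (50.1%). In the interaction, tested below, 6 were called without it, 2 positive and 4 negative, beside 36.6% of all genes. All member calls made with it were kept in the same direction without it.

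**Figure D1:**
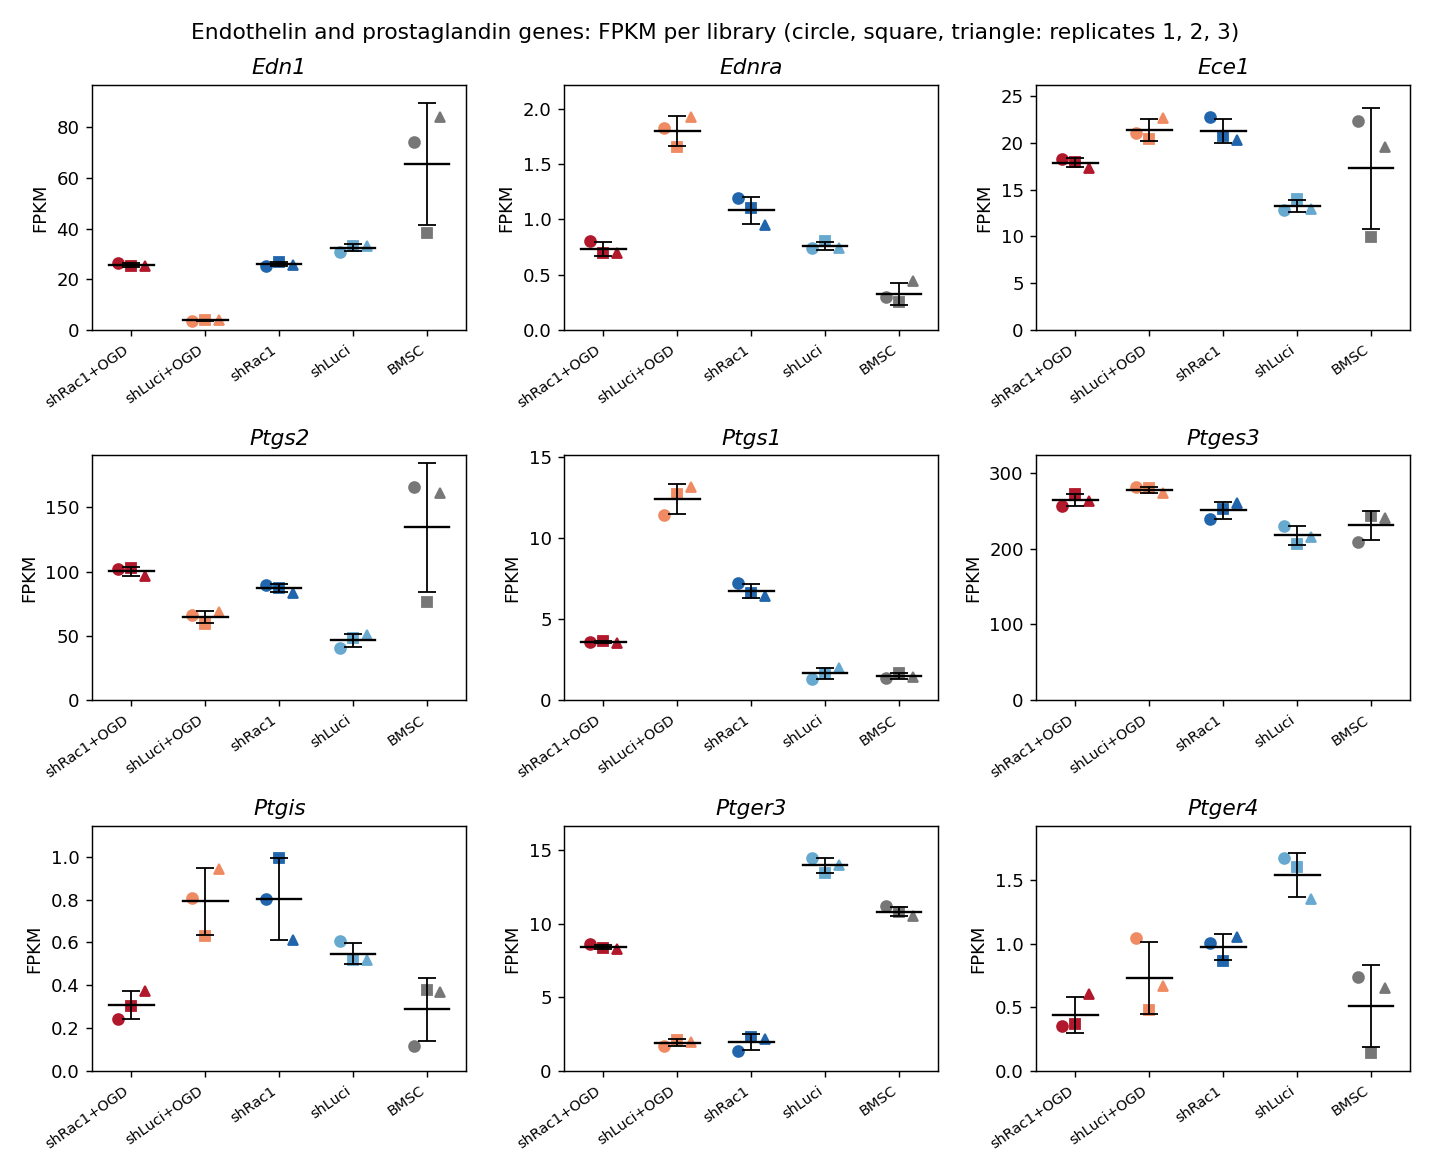
FPKM of the 9 listed genes (y axis, linear from 0) in each of the 15 libraries by group (x axis), with bars for the mean ± SD of 3 libraries. Ptgs1 is highest in shLuci+OGD and next in shRac1, the groups in which Ptger3 is lowest, and BMSC replicate 2 (square) is far below replicates 1 and 3 for Edn1, Ptgs2 and Ece1.

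Edn1, the precursor of endothelin-1, fell in deprived control cells and not detectably in deprived shRac1 cells. Edn1 (ENSRNOG00000014361, chromosome 17, 22137324 to 22143324, minus strand; no source used here gives the build of the deposited positions) read 26.5, 25.2 and 25.4 FPKM in shRac1+OGD and 3.40, 3.88 and 3.90 FPKM in shLuci+OGD. It read 25.3, 26.7 and 25.8 FPKM in shRac1, 30.9, 33.2 and 33.3 FPKM in shLuci, and 74.2, 38.2 and 84.1 FPKM in BMSC. The shLuci+OGD libraries lie below all others with no overlap, and the BMSC libraries above all others, though replicate 2 by little. Edn1 was lower in shLuci+OGD than in shLuci (log2 difference -2.97, SE 0.21, limma adjusted p = 4.61e-07), a fold of 0.128 in FPKM + 0.5. In shRac1+OGD against shRac1 the log2 change was -0.02 (95% confidence interval -0.47 to 0.44, limma adjusted p = 0.992). The test of the difference between these OGD responses, the hairpin by OGD interaction, gave 2.95 (SE 0.30, limma adjusted p = 1.44e-05); 4 of the 8 members were called there, 2 positive and 2 negative, beside 16.7% of all genes (8.88% positive, 7.82% negative). After OGD, shRac1+OGD stood 6.2-fold above shLuci+OGD in FPKM + 0.5 (2.63 on the log2 scale, SE 0.21, limma adjusted p = 7.24e-06).

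Both infected undeprived groups had less Edn1 than uninfected cells. The log2 change against BMSC was -1.24 in shRac1 (limma adjusted p = 0.00222) and -0.92 in shLuci (limma adjusted p = 0.0109), and -1.59 and -1.27 without BMSC replicate 2. A fit to the compared groups alone ended both calls (limma adjusted p = 0.170 and 0.244), and rescaling to a common total ended the second (0.0759). Between shRac1 and shLuci the change of -0.32 was not called (limma adjusted p = 0.408), although the groups do not overlap; without BMSC replicate 2 it was called (limma adjusted p = 0.00169). The group means thus run, from high to low, BMSC, shLuci, shRac1, shRac1+OGD and shLuci+OGD, and of the neighbours neither shLuci and shRac1 nor shRac1 and shRac1+OGD were told apart in the fit to all libraries. Endothelial cells are the best known source of endothelin-1, and of 8 endothelial markers only Tek and Egfl7 are listed. Tek stayed below 1 FPKM as a group mean (0.353 in shRac1+OGD, 0.457 in shLuci+OGD, 0.746 in shRac1, 0.532 in shLuci, 0.483 in BMSC). Egfl7 averaged 12.4, 14.4, 17.4, 10.3 and 16.5 FPKM in the same order of groups. The part of such cells in the result was not tested. Of 6 smooth muscle and pericyte markers 5 are listed, with none at 0 in all libraries of a group. Their sum was 3065 to 3224 FPKM in shRac1+OGD, 1643 to 1923 in shLuci+OGD, 3480 to 3739 in shRac1, 3480 to 4107 in shLuci and 4687 to 6316 in BMSC. The sum is mostly Acta2, at 2701, 1498, 3167, 3470 and 4723 FPKM in the same order, which was lowest and highest in the same groups as Edn1, as was Myh11 (11.1, 3.59, 7.88, 7.27 and 12.7 FPKM). Cnn1 (423, 249, 406, 251 and 551 FPKM) was about as low in shLuci as in shLuci+OGD, Des (1.21, 3.12, 1.65, 0.348 and 0.688 FPKM) was highest in shLuci+OGD, and Cspg4 had group means of 23.2 to 28.7 FPKM. Their part in the result was not tested.

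Ednra, the type A endothelin receptor, was scarce in all groups and moved against Edn1. Ednra (ENSRNOG00000012721, chromosome 19, 33928356 to 33991703) read 0.802, 0.696 and 0.691 FPKM in shRac1+OGD and 1.82, 1.66 and 1.93 FPKM in shLuci+OGD. It read 1.19, 1.10 and 0.950 FPKM in shRac1, 0.738, 0.801 and 0.737 FPKM in shLuci, and 0.293, 0.249 and 0.439 FPKM in BMSC. All 3 shLuci+OGD libraries are above every other library and all 3 BMSC libraries below. Ednra passed the filter through 5 libraries, the 3 of shLuci+OGD and 2 of shRac1, so a difference of those groups from the rest was built into its being tested. It rose in shLuci+OGD against shLuci by 0.87 (SE 0.11, limma adjusted p = 8.22e-05). In shRac1+OGD against shRac1 the change of -0.36 missed the threshold (limma adjusted p = 0.0544; 0.0257 without BMSC replicate 2). The interaction was -1.23 (SE 0.16, limma adjusted p = 0.000111). It was higher than in BMSC in shRac1 (0.94, limma adjusted p = 0.000144) and in shLuci (0.61, limma adjusted p = 0.00258), calls that a fit to the compared groups alone ended (0.0585 and 0.140). Without BMSC replicate 2 these changes were 0.87 and 0.54, both called. In the order of levels, shLuci+OGD stood above shRac1 (limma adjusted p = 0.00503), shRac1, shLuci and shRac1+OGD were not told apart from their neighbours, and shRac1+OGD stood above BMSC (limma adjusted p = 0.00468), a call that a fit to these groups alone ended (0.172).

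Per length, so that levels of the genes can be compared, transcripts of the ligand outnumbered those of the receptor in every library, by a ratio that varied widely. Edn1 over Ednra was 33.0 to 36.7 in shRac1+OGD, 1.86 to 2.34 in shLuci+OGD, 21.3 to 27.1 in shRac1, 41.5 to 45.2 in shLuci and 153 to 253 in BMSC. The ranges of the 5 groups do not overlap. Ednra read only 0.249 to 0.439 FPKM in BMSC, so the high ratios there rest on values near the floor.

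Ece1, which encodes endothelin-converting enzyme 1, varied least of the endothelin genes. Ece1 (ENSRNOG00000014241, chromosome 5, 156215417 to 156318671) read 18.3, 18 and 17.4 FPKM in shRac1+OGD, 21.0, 20.4 and 22.7 FPKM in shLuci+OGD, 22.8, 20.8 and 20.3 FPKM in shRac1, and 12.8, 14 and 13 FPKM in shLuci. In BMSC replicates 1, 2 and 3 it read 22.4, 9.93 and 19.5 FPKM, so that group runs from below the shLuci libraries to among the highest of the others. Ece1 was higher in shLuci+OGD than in shLuci by 0.67 (SE 0.21, limma adjusted p = 0.0382), with no overlap. That call is close to the threshold and was lost on leaving out any 1 of 12 libraries, those of the 4 infected groups (adjusted p of 0.0512 to 0.113), and on rescaling to a common total (0.157). In shRac1 against shLuci the change of 0.66 was just not called (limma adjusted p = 0.0501; 5.02e-06 without BMSC replicate 2). No neighbours in the order of levels, shLuci+OGD, shRac1, shRac1+OGD, BMSC and shLuci, were told apart.

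Ptgs2, the inducible cyclooxygenase, was the more abundant of the cyclooxygenases in every library. Ptgs2 (ENSRNOG00000002525, chromosome 13, 67351087 to 67359335) read 102, 103 and 96.4 FPKM in shRac1+OGD and 66.1, 59.3 and 68.8 FPKM in shLuci+OGD. It read 89.9, 87.3 and 83.6 FPKM in shRac1, 40.6, 48.7 and 50.4 FPKM in shLuci, and 165, 76.7 and 161 FPKM in BMSC. Each infected group is separate from the others, and BMSC replicate 2 falls among them. Ptgs2 was higher in shRac1 than in shLuci by 0.90 (SE 0.22, limma adjusted p = 0.0142). Leaving out shLuci replicate 1 or shRac1 replicate 1 ended this call (0.0642 and 0.0505), as did rescaling to a common total (0.0715), and without BMSC replicate 2 the adjusted p was 8.85e-07. It was lower in shLuci than in BMSC (log2 difference -1.44, SE 0.22, limma adjusted p = 0.000861), or -1.81 without BMSC replicate 2, but a fit to these groups alone ended the call (0.111).

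The OGD differences of Ptgs2 were not called. They were 0.20 in shRac1+OGD against shRac1 (95% confidence interval -0.28 to 0.69, limma adjusted p = 0.741) and 0.47 in shLuci+OGD against shLuci (-0.01 to 0.96, limma adjusted p = 0.163). Between shRac1+OGD and shLuci+OGD the difference was 0.63 (0.14 to 1.11, limma adjusted p = 0.133). Without BMSC replicate 2, the last 2 were called (limma adjusted p = 0.000210 and 5.29e-05) and the first was not (0.0621). The order of levels was BMSC, shRac1+OGD, shRac1, shLuci+OGD and shLuci, with no neighbours told apart in the fit to all libraries. The test of the difference between the OGD responses gave -0.27 (limma adjusted p = 0.701).

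Ptgs1, the cyclooxygenase usually called constitutive, spanned a wider relative range than Ptgs2. Ptgs1 (ENSRNOG00000007415, chromosome 3, 15560712 to 15582344) read 3.61, 3.63 and 3.54 FPKM in shRac1+OGD and 11.4, 12.7 and 13.1 FPKM in shLuci+OGD. It read 7.20, 6.58 and 6.44 FPKM in shRac1, 1.33, 1.68 and 1.96 FPKM in shLuci, and 1.36, 1.69 and 1.45 FPKM in BMSC. Only the last 2 groups overlap. Ptgs1 rose in shLuci+OGD against shLuci by 2.59 (SE 0.11, limma adjusted p = 7.14e-09), a fold of 6.02 in FPKM + 0.5. In shRac1+OGD it fell to a mean of 3.59 ± 0.0450 FPKM, against 6.74 ± 0.407 FPKM in shRac1 (n = 3 each), which is -0.82 on the log2 scale (SE 0.11, limma adjusted p = 0.000362). The interaction of -3.41 (SE 0.16, limma adjusted p = 1.97e-08) tests whether the responses differ.

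Between the hairpins the sign of the Ptgs1 difference turned round with OGD. After OGD it was lower in shRac1+OGD than in shLuci+OGD (log2 difference -1.66, limma adjusted p = 2.16e-06). Without OGD it was higher in shRac1 than in shLuci by 1.76 (limma adjusted p = 4.12e-07), and higher in shRac1 than in BMSC by 1.86 (limma adjusted p = 7.63e-07; 1.93 without BMSC replicate 2). In shLuci against BMSC the change was 0.10 (95% confidence interval -0.14 to 0.35, limma adjusted p = 0.587). The order of levels was shLuci+OGD, shRac1, shRac1+OGD, shLuci and BMSC, and each neighbour but the last was called apart. Macrophages and platelets are known for Ptgs1. Of 8 macrophage markers Cd14 and Cd68 are listed, and their sum was 9.41 to 9.95 FPKM in shRac1+OGD, 12.4 to 13.5 in shLuci+OGD, 7.86 to 9.46 in shRac1, 7.32 to 8.87 in shLuci and 7.08 to 10.1 in BMSC. Ptprc, Csf1r, Itgam and 3 other macrophage markers have no row. Of 4 platelet markers only Gp1bb is listed, and the sum of its 2 rows was 41.6 to 46.9 FPKM in shRac1+OGD, 35.2 to 39.1 in shLuci+OGD, 39.0 to 41.1 in shRac1, 64.1 to 70.4 in shLuci and 45.2 to 55.4 in BMSC. The macrophage sum is mostly Cd14, which averaged 8.91, 12.4, 7.96, 7.37 and 7.25 FPKM in the same order of groups and was highest in the group with the most Ptgs1. Cd68 averaged 0.790, 0.586, 0.795, 0.827 and 1.12 FPKM and was lowest there. Their part in the result was not tested.

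The balance of the cyclooxygenases differed between groups. Ptgs2 over Ptgs1, a ratio of levels per length, was 27.2 to 28.3 in shRac1+OGD, 4.67 to 5.80 in shLuci+OGD, 12.5 to 13.3 in shRac1, 25.7 to 30.5 in shLuci and 45.4 to 122 in BMSC. The low end in BMSC is replicate 2. The shRac1+OGD and shLuci ranges overlap, and shLuci+OGD lies below all others.

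**Figure D2:**
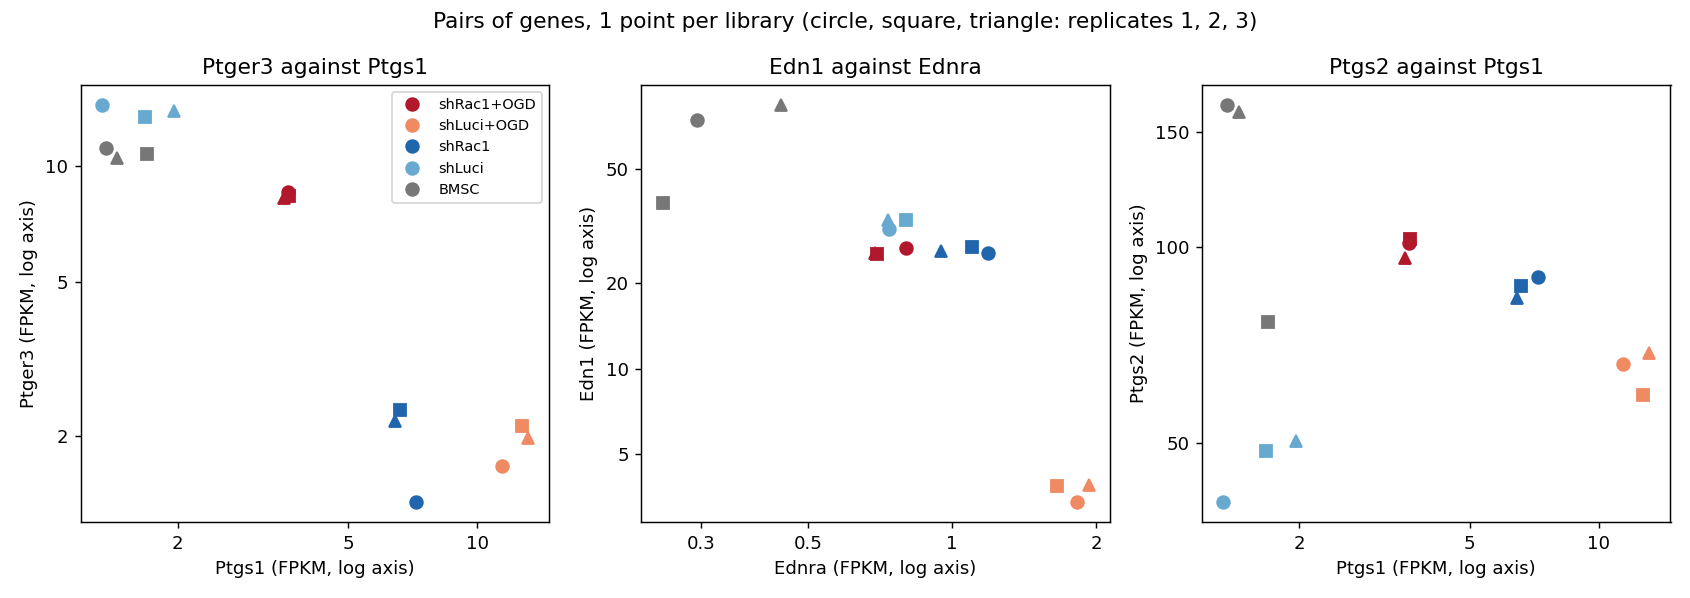
Each point is 1 library, placed by the FPKM of a pair of genes on log axes, and coloured by group. Ptger3 is low where Ptgs1 is high (left), shLuci+OGD stands alone with low Edn1 and high Ednra (middle), and Ptgs2 and Ptgs1 move separately (right).

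Among the terminal synthases, Ptges3 was the most abundant member and the steadiest. Its protein, also known as p23, is a cochaperone of HSP90 as well as a cytosolic prostaglandin E synthase. Ptges3 (ENSRNOG00000002642, chromosome 7, 2479311 to 2497013) averaged 263 ± 7.93 FPKM in shRac1+OGD, 278 ± 3.94 in shLuci+OGD, 250 ± 11 in shRac1, 217 ± 12.1 in shLuci and 231 ± 19.4 in BMSC (SD, n = 3 each). It was higher in shLuci+OGD than in shLuci by 0.35 (SE 0.08, limma adjusted p = 0.00438), without overlap. Median-of-ratios scaling, which removes the shift of the median of all genes, gave 0.27 and ended the call (0.0577). No neighbours in the order of its levels were told apart. RefSeq lists further Ptges3-like genes and a pseudogene, so reads shared between copies may have been assigned by the authors' counting to either. Of 10 HSP90 and cochaperone genes, all listed and given by 11 rows, 2 rows were called higher (Hsp90ab1, 0.32; Ahsa1, 0.36) and 1 lower (Hspa8, -0.22) in shLuci+OGD against shLuci, beside the 22.3% of all genes. Their median was 0.14, against 0.08 for all genes. Without BMSC replicate 2, 6 rows were called, 4 higher and 2 lower, beside 45.7% of all genes.

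Ptgis, the prostacyclin synthase, read at most 0.995 FPKM. It averaged 0.306 ± 0.0659 FPKM in shRac1+OGD, 0.793 ± 0.157 in shLuci+OGD, 0.803 ± 0.192 in shRac1, 0.548 ± 0.0506 in shLuci and 0.287 ± 0.147 in BMSC (SD, n = 3 each). The shRac1+OGD libraries (0.241 to 0.373) lie below those of shLuci+OGD and of shRac1 (0.611 to 0.995). In a fit of all genes without the filter, Ptgis was lower in shRac1+OGD than in shLuci+OGD (-0.68, limma adjusted p = 0.0182) and than in shRac1 (-0.69, limma adjusted p = 0.0119), and higher than in BMSC in shLuci+OGD (0.73, limma adjusted p = 0.00388) and in shRac1 (0.74, limma adjusted p = 0.00958). In that fit its interaction was -0.98 (limma adjusted p = 0.00771).

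Ptger3, the EP3 receptor, had the largest interaction of the 8 members. Ptger3 (ENSRNOG00000010325, chromosome 2, 263895241 to 263979698) read 8.58, 8.37 and 8.29 FPKM in shRac1+OGD and 1.66, 2.11 and 1.97 FPKM in shLuci+OGD. It read 1.34, 2.33 and 2.18 FPKM in shRac1, 14.5, 13.4 and 14 FPKM in shLuci, and 11.2, 10.8 and 10.5 FPKM in BMSC. The shLuci+OGD and shRac1 libraries overlap and lie far below the other groups, none of which overlap. In shRac1+OGD it rose over shRac1 by 1.89 (SE 0.14, limma adjusted p = 2.16e-06). In shLuci+OGD it fell against shLuci, (log2 difference -2.59, SE 0.14, limma adjusted p = 4.19e-08). The interaction was 4.47 (SE 0.19, limma adjusted p = 9.54e-09). BMSC replicate 2 was not low for Ptger3, and without it these folds between infected groups stayed the same by construction.

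Between hairpins Ptger3 was higher in shRac1+OGD than in shLuci+OGD by 1.89 (limma adjusted p = 3.36e-06). Without OGD it was lower in shRac1 than in shLuci, with a log2 change of -2.58 (limma adjusted p = 7.37e-08), and lower than in BMSC, with -2.23 (limma adjusted p = 7.87e-07). The difference of shLuci+OGD from shRac1 was 0.00 with a 95% confidence interval of -0.30 to 0.30 (limma adjusted p = 0.999). In the order shLuci, BMSC, shRac1+OGD, shRac1 and shLuci+OGD, only shRac1+OGD and shRac1 were called apart as neighbours (shLuci against BMSC 0.35, limma adjusted p = 0.115; shRac1+OGD against BMSC -0.34, 0.118).

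Ptger4, the EP4 receptor, was near the limit of what was tested. Ptger4 (ENSRNOG00000013240, chromosome 2, 54952821 to 54963448, minus strand) read 0.350, 0.368 and 0.606 FPKM in shRac1+OGD, 1.04, 0.481 and 0.670 in shLuci+OGD, 1.00, 0.862 and 1.05 in shRac1, 1.67, 1.60 and 1.35 in shLuci, and 0.735, 0.139 and 0.650 in BMSC. The shLuci libraries are above all others, and the filter was passed through these 3 and 3 further libraries of shRac1 and shLuci+OGD. High values in shLuci alone were enough for Ptger4 to be tested, so its differences from shLuci were favoured in advance and are descriptions. It was lower in shLuci+OGD than in shLuci (log2 difference -0.75, SE 0.23, limma adjusted p = 0.0363). This call was lost without 1 of 7 libraries (each of shLuci, shRac1 replicates 1 and 3, shLuci+OGD replicates 2 and 3; adjusted p of 0.0501 to 0.142) and with a pseudocount of 0.1 (0.0995). Against shRac1 the change in shRac1+OGD was -0.65 (limma adjusted p = 0.0989; 0.00814 without BMSC replicate 2). It was higher in shLuci than in BMSC by 1.07 (SE 0.23, limma adjusted p = 0.00852), or 0.77 without BMSC replicate 2, and not in a fit to these groups alone (limma adjusted p = 0.163). No neighbours in its order of levels, shLuci, shRac1, shLuci+OGD, BMSC and shRac1+OGD, were told apart. Ptger3 over Ptger4 was 13.7 to 24.5 in shRac1+OGD, 1.60 to 4.39 in shLuci+OGD, 1.33 to 2.70 in shRac1, 8.37 to 10.4 in shLuci and 15.2 to 77.7 in BMSC, so Ptger3 was the more abundant per length in all 15 libraries. The ratio of 77.7 is that of BMSC replicate 2 alone, and the other BMSC libraries had 15.2 and 16.2.

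**Figure D3:**
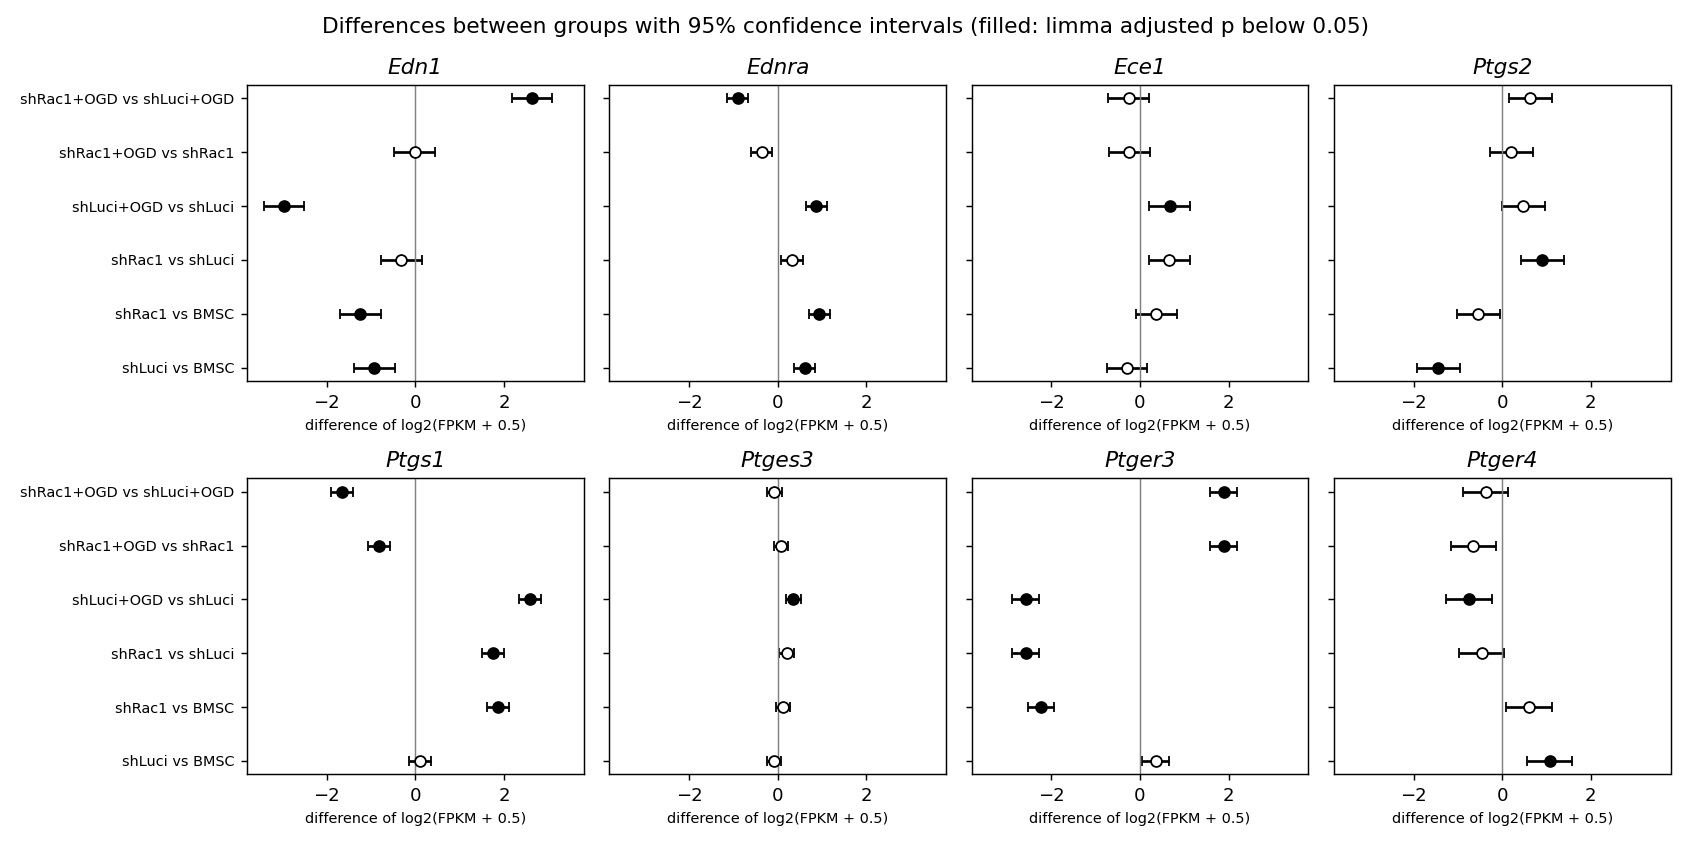
Difference of log2(FPKM + 0.5) (x axis, first-named group minus second) for the 8 tested genes in 6 comparisons (rows), with 95% confidence intervals from limma on all 15 libraries; filled points had an adjusted p below 0.05. For Ptgs1 and Ptger3 the points of shRac1+OGD vs shRac1 and shLuci+OGD vs shLuci lie on opposite sides of 0, and the Edn1 change with OGD is seen in shLuci.

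The remaining genes of both pathways were taken from a list of 32, of which 16 have a row and 16 have none, among the latter Ednrb, the type B endothelin receptor, Hpgd, which inactivates prostaglandins, and Ptger1 and Ptger2. The listed genes have 17 rows, as Cbr1 has more than 1. Ptgir, at group means of 0.114 to 0.520 FPKM, did not pass the filter and was not tested. Of the 16 rows tested, 4 were called higher and 1 lower in shLuci+OGD against shLuci, beside 13.1% and 9.18% of all genes, with a median of 0.22 against 0.08 for all genes. Ptgr1, a reductase that degrades prostaglandins and leukotriene B4, stood at 265 ± 11.3 FPKM in shRac1+OGD, 424 ± 22.6 in shLuci+OGD, 285 ± 16.7 in shRac1, 89.6 ± 6.42 in shLuci and 210 ± 53.9 in BMSC (SD, n = 3 each). It rose in shLuci+OGD over shLuci by 2.24 (SE 0.14, limma adjusted p = 1.31e-07). Ptgr2, another such reductase, rose there by 0.57 (limma adjusted p = 0.00495). Pla2g4a, the cytosolic phospholipase that releases arachidonic acid, and Pla2g6, a calcium-independent one, rose by 0.80 and 0.62 (limma adjusted p = 0.0328 and 0.000102). Slco2a1, the transporter that takes prostaglandins into cells, was lower in shLuci+OGD (log2 difference -0.68, limma adjusted p = 0.000463).

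The same list had 2 rows of 16 lower in shRac1+OGD than in shRac1, beside 4.19% of all genes. Slco2a1 averaged 24.9 ± 0.616 FPKM in shRac1+OGD and 50.9 ± 3.91 FPKM in shRac1 (n = 3 each, log2 change -1.01, limma adjusted p = 4.59e-05). Ptgfr, the prostaglandin F receptor, averaged 7.27 ± 1.00 FPKM in shRac1+OGD and 15.3 ± 0.922 FPKM in shRac1 (log2 change -1.03, limma adjusted p = 0.00904). Slco2a1 was thus lower after OGD with both hairpins. Between shRac1+OGD and shLuci+OGD 1 row of 16 was called, beside 7.43% of all genes: Ptgr1, which was lower (log2 difference -0.68, limma adjusted p = 0.00815). In shRac1 against shLuci 3 were higher, beside 6.92% of all genes: Ptgr1 (1.67, limma adjusted p = 3.02e-06), Ptgr2 (0.53, limma adjusted p = 0.0112) and Slco2a1 (0.47, limma adjusted p = 0.00870). Against BMSC, 3 of 16 were higher in shRac1, beside 6.39% of all genes: Ptgr1, Ptgfr and Slco2a1 (0.47, 1.02 and 0.55; 0.67, 0.76 and 0.42 without BMSC replicate 2, all called). In shLuci 2 of 16 were lower than in BMSC, beside 4.29% of all genes: Ptgr1 and Pla2g6 (-1.19 and -0.33; -0.99 and -0.31 without that library, both called). The interaction was called for 4 rows of 16, all negative, beside 16.7% of all genes (7.82% negative): Ptgr1 (-2.35), Pla2g6 (-0.42), Ptgr2 (-0.61) and Ptgfr (-1.15). Without BMSC replicate 2 the rows called numbered 7 of 16 in shLuci+OGD against shLuci (45.7% of all genes) and 5 in shRac1+OGD against shRac1 (30.1%). They numbered 3 in shRac1+OGD against shLuci+OGD (21.5%), 7 in shRac1 against shLuci (37.3%) and 8 in the interaction (36.6%). Against BMSC they numbered 4 in shRac1 (21.1%) and 7 in shLuci (32.0%).

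**Figure D4:**
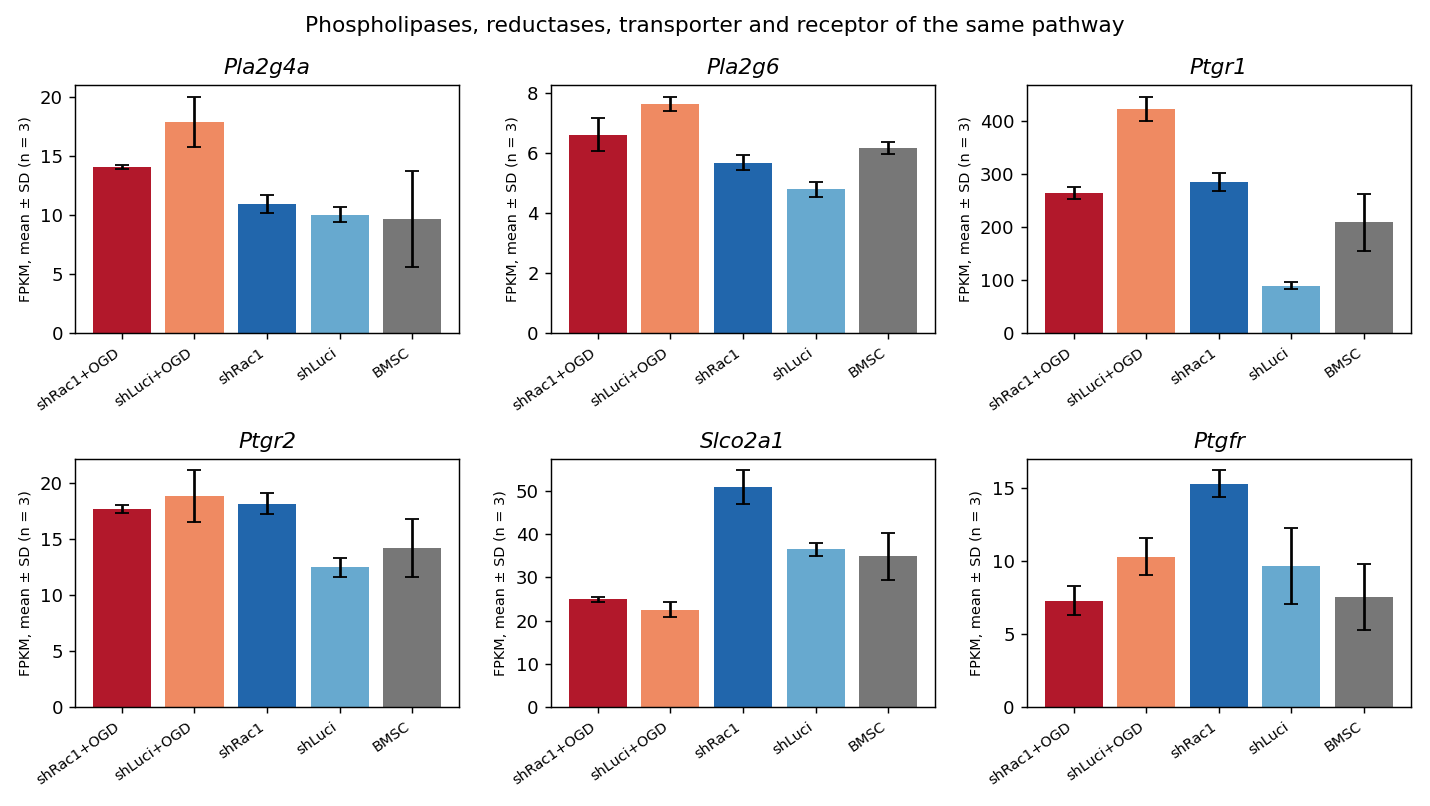
Mean FPKM of 6 further pathway genes in the 5 groups, with error bars for the SD of 3 libraries and y axes from 0. Ptgr1 is highest in shLuci+OGD and lowest in shLuci, and Slco2a1 is lower in both OGD groups than in the 2 infected groups without OGD.

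For the 4 members with the widest range of group means, the 3 tested genes with the most similar pattern were found by Pearson's r of log2(FPKM + 0.5) over the 15 libraries, which fall into 5 groups and share their library effects. For Edn1 these were Adarb1 (0.988), Tgfb3 (0.978) and Ctgf (0.977). Tgfb3 averaged 390, 172, 431, 515 and 583 FPKM in shRac1+OGD, shLuci+OGD, shRac1, shLuci and BMSC. Ptgs1 was most like LOC100911825 (0.980), Aldh3a1 (0.979) and Tnfaip8l3 (0.972), which averaged 0.868, 0.616 and 0.489 FPKM in BMSC. Ptger3 was most like Prr5 (0.981), Ddah1 (0.979) and Igfbp3 (0.979). Of these, Prr5 and Igfbp3 were near the floor, at group means of 0.257 to 1.71 and 0.0132 to 1.14 FPKM. Ddah1, which breaks down an inhibitor of nitric oxide synthesis, averaged 87.5, 41.6, 43.0, 98.1 and 101 FPKM in the same order of groups. For Ednra they were Pcsk7 (0.969), Ca5b (0.967) and Myd88 (0.958). These are descriptions and carry no test.

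The authors' deposited table of changed genes holds 19 entries for 7 of the members over its 6 pairs of groups, at a fold of at least 1.5. For shRac1+OGD against shLuci+OGD it lists Edn1 (log2 fold 2.50), Ptger3 (1.69) and Ptgs2 (0.63) as higher and Ptgs1 (-1.54) and Ednra (-0.70) as lower. For Edn1, Ptger3, Ptgs1 and Ednra these values equal the differences found here with a pseudocount of 1. That scale shrinks changes of genes with low values more than the 0.5 used above. In the authors' deposited table for shLuci+OGD against shRac1, Ptgs1 was higher (0.79) and Edn1 lower (-2.51). For shRac1+OGD against BMSC the authors' deposited table gives Ptgs1 as higher (0.88) and Edn1 as lower (-1.24). Ptgs2 is in the authors' deposited table for shRac1+OGD against shLuci+OGD with a q-value of 0.0205, where limma on all 15 libraries did not call it. Ece1 is there for shLuci against shRac1 (log2 fold -0.64, q = 0.00829), and limma did not call it either (limma adjusted p = 0.0501). The reverse holds for 5 entries of the authors' deposited table, whose q-values are above 0.05 where limma made a call: Edn1 in BMSC against shRac1 (q = 0.278) and in shRac1+OGD against BMSC (0.219), Ednra in BMSC against shRac1 (0.0645), and Ptgs2 and Ptger4 in shLuci against BMSC (0.190 and 0.187).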

How the data were processed

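Libraries were made from total RNA with standard Illumina protocols, per the labels' protocols. The submitters' processing notes name StringTie 1.2.3 and HISAT2, the second with no version. Each library has 1 FPKM value per gene, as deposited by the authors and per the file headers. Neither the genome build nor a strand setting is stated in these sources. The authors also deposited log2 fold changes, fold changes (ratios), p-values and q-values for changed genes, per the file headers, with the test not named. FPKM without counts leave the depth unknown, so counting intervals are not given.

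Groups come from the sample titles. The filter was 1 FPKM or more in 3 or more of 15 libraries; 11515 genes passed and 654 were removed. Differences of log2(FPKM + 0.5) were tested with limma 3.58.1 under R 4.3.3, with a trended empirical Bayes step and all 15 libraries in 1 fit of 5 group means, two-sided, adjusted by Benjamini and Hochberg. Error values after log2 changes are limma's standard errors. The test was checked on simulated data for shRac1 against shLuci, with each gene given the same spread in all groups. Of 50 genes changed by each of 0.5, 1, 2 and 3 on the log2 scale, it called 17, 34, 44 and 47. It called 5 of 11315 unchanged genes. The wider spread that BMSC replicate 2 brings was not simulated. Members and lists were chosen with earlier results of these data known. Named genes are all members, Rac1, up to 6 called genes of each list with the smallest p, and the most similar genes of 4 members. Alternatives were other pseudocounts, filters and scalings, a fit to the compared groups, a replicate block and leaving out each library. Same-numbered libraries deviated together (every r over 0.1) in 1 of 10 pairs of groups, shLuci+OGD with BMSC, so the fit reported for every pair is without the block, which changed no member call in that pair.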

Additional observations from a re-analysis of the deposited data

Results flagged for a closer look

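In the fit to all libraries, the response to OGD differed between the hairpins for 4 of the 8 tested members, beside 16.7% of all genes. The test was of the difference itself, the hairpin by OGD interaction in limma (shRac1+OGD minus shRac1, less shLuci+OGD minus shLuci). Without BMSC replicate 2, 6 were called (36.6% of all genes), Ptges3 among them (-0.28, limma adjusted p = 0.0223). That of Ece1 was -0.91 (limma adjusted p = 0.0565), and was called with median-of-ratios scaling (-0.89, limma adjusted p = 0.0373). Ptger3 had an interaction of 4.47 on the log2 scale, with OGD responses of 1.89 in shRac1 and -2.59 in shLuci cells. Ptgs1 had -3.41, with responses of -0.82 and 2.59. For these genes both responses were called, in opposite directions. Edn1 had 2.95, with responses of -0.02 and -2.97, and Ednra had -1.23, with -0.36 and 0.87; their response in shRac1 cells was not called, although that of Ednra was without BMSC replicate 2 (limma adjusted p = 0.0257). Ednra entered the test only through libraries of shLuci+OGD and shRac1, where it is high, which favours an interaction of this sign, so its value is a description. Over the alternatives tried the interaction ranged from 4.05 to 4.90 for Ptger3, -3.73 to -3.09 for Ptgs1, 2.81 to 3.08 for Edn1 and -1.65 to -0.94 for Ednra, with adjusted p up to 0.000652. All 4 rest on the titles of the undeprived libraries, which Rac1 does not check and which may not all be right. Set against the other hairpin's undeprived libraries, shLuci+OGD differed from shRac1 by 0.83 for Ptgs1, -0.00 for Ptger3, -2.65 for Edn1 and 0.54 for Ednra, and shRac1+OGD differed from shLuci by 0.93, -0.70, -0.33 and -0.03. In these pairs Ptgs1 is higher after OGD with both hairpins and Ptger3 does not move in opposite directions.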

How the results depend on the processing

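Of 45 called differences of single members, 976 of 1024 values under the 23 alternatives kept direction and call, 48 kept the direction and lost the call, and 0 reversed. With only the compared groups in the fit, the members called numbered 0 in shLuci vs BMSC (limma; 5 of 8 at an unadjusted p below 0.05), against 4, and 2 in shRac1 vs BMSC, against 4. They numbered 7 in shRac1 vs shLuci, against 3, and 6 in shRac1+OGD vs shRac1, against 2. Calls over all 11515 genes moved the same way. They went from 1644 to 181, 1232 to 161, 1928 to 3731 and 1376 to 4367 in these comparisons, in the same order. A minimum mean of 5 FPKM removed Ednra and Ptger4 and left 2 in shLuci vs BMSC. Without a filter 4 were called in shRac1+OGD vs shRac1, Ptgis among them. Leaving out 1 library gave 2 to 8 in shRac1 vs shLuci (8 without BMSC replicate 2, 5 without BMSC replicate 1 or 3) and 2 to 5 in shRac1+OGD vs shRac1 (5 without BMSC replicate 2). The other ranges were 4 to 5 in shLuci vs BMSC and in shRac1 vs BMSC, 5 to 8 in shLuci+OGD vs shLuci, and 4 to 6 in shRac1+OGD vs shLuci+OGD and in the interaction. Over the 10 pairs of groups 41 member differences were called, and 38 to 60 on leaving out 1 library.

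The replicate block left each of the 7 counts of members as they were and gave 40 of 41 differences over the 10 pairs. The difference lost was Ptges3 in shRac1+OGD vs shLuci (limma adjusted p = 0.0612 with the block). Deviations of same-numbered libraries correlated between -0.64 and 0.56. Over all genes, 1644 were called in shLuci vs BMSC, 181 in a fit to these groups and 3686 without BMSC replicate 2. These counts were 1232, 161 and 2430 in shRac1 vs BMSC, 1928, 3731 and 4296 in shRac1 vs shLuci, and 2564, 4050 and 5259 in shLuci+OGD vs shLuci. They were 1376, 4367 and 3465 in shRac1+OGD vs shRac1, 856, 2100 and 2473 in shRac1+OGD vs shLuci+OGD, and 1922, 4175 and 4217 in the interaction. A minimum mean of 5 FPKM, with fewer genes tested, gave 1052, 739, 1117, 1621, 749, 470 and 1120 in the same order. Median-of-ratios scaling removes median shifts of 0.11 in shLuci vs BMSC, 0.20 in shLuci+OGD vs BMSC and 0.15 in shRac1+OGD vs BMSC. Of the calls made without it, the scaling ended only those of Ptges3. It added calls of Ece1, higher in shRac1 vs shLuci (limma adjusted p = 0.0245) and negative in the interaction (0.0373). It also added Ednra, lower in shRac1+OGD vs shRac1 (limma adjusted p = 0.0350), and Ptger3, lower in shRac1+OGD vs BMSC (0.0418). FPKM of Ednra, Ptger4 and Ptgis near or below 1 limit what can be said of these genes.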
